A study of Oryctolagus cuniculus with 6 samples.

Results

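The 7 genes described here encode solute carriers, the membrane proteins that move amino acids, neurotransmitters, bile acids, metal ions and inorganic anions across cell membranes. They are SLC1A1, SLC7A10, SLC6A11, SLC6A12, SLC10A2, SLC30A2 and SLC26A9, and they were found by symbol among 421 mRNA transcripts of 415 genes in the authors' deposited table. Each of the 7 had 1 listed transcript, and a gene name below stands for that transcript. The samples were hypertrophic scars, raised scars that follow excessive wound healing. They came from 6 rabbits, female and of the New Zealand White breed, whose ear wounds were followed to day 21 and then profiled by RNA sequencing. In 3 control rabbits the full-thickness wounds, 6 on each ear, had received saline. In the other 3 rabbits they had received ADSCs-Exos, the vesicles that stem cells of adipose tissue secrete (exosomes), 100 µg per 2 ml. By the study's design text this was done on the first 3 days, but the sample labels read as treatment over 21 days. Each rabbit is a separate replicate, numbered as in the labels, and the labels do not say how many of its wounds entered a library.

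Solute carriers are secondary transporters and facilitators. Many of them couple uptake to the inward gradient of sodium, others exchange one solute for another, and a few conduct ions like channels. In skin they are known for supplying amino acids for protein and glutathione synthesis, for holding organic osmolytes in cells and for moving zinc between cytosol and vesicles.

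The table is a selection. Every listed mRNA had an absolute log2 fold change above 1 and a p-value under 0.05 in the authors' own comparison of the same rabbits, so the differences below describe transcripts that were listed because they differ. SLC6A12 lay closest to that limit among the 7, at a difference of -1.003. Values are log2(normalized reads + 1), where normalized reads are whole reads divided by the library's size factor. A difference is the ADSC-Exos mean less the control mean. Summed over the listed mRNAs, reads ranged from 100758 to 155547 in the control rabbits and from 86844 to 224554 in the ADSC-Exos rabbits, with ADSC-Exos rabbit 1 the lowest. Library totals are unknown. In scar tissue, fewer cells of a type and less RNA per cell cannot be told apart.

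Of the 7 members, 4 were higher and 3 lower in ADSC-Exos scars. Among all listed mRNAs 242 were higher and 179 lower. By the authors' deposited table, SLC1A1 and SLC7A10, or 2 members, passed an FDR (p adjusted for the number of transcripts tested) of 0.05, SLC1A1 higher and SLC7A10 lower. Of all listed mRNAs 11.6% passed it, 5.23% as higher and 6.41% as lower. The arms did not overlap for 3 members, SLC1A1, SLC7A10 and SLC10A2, against 53.7% of the listed mRNAs. At an unadjusted limma p under 0.05 the same 3 members passed, against 45.8% of the listed mRNAs, 22.3% as higher and 23.5% as lower. No member passed limma with Benjamini-Hochberg adjustment over the table, where 0.713% of the listed mRNAs did. The median absolute difference was 2.19 for the members and 1.65 for the table. The members' median is the difference of SLC30A2, a transcript with few reads. Its size depends on the 1 added before the log2 (the pseudocount), and was 3.50 with 0.1 and 1.15 with 5 in its place. The medians therefore do not show that the members differed more than other listed mRNAs.

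**Figure D1:**
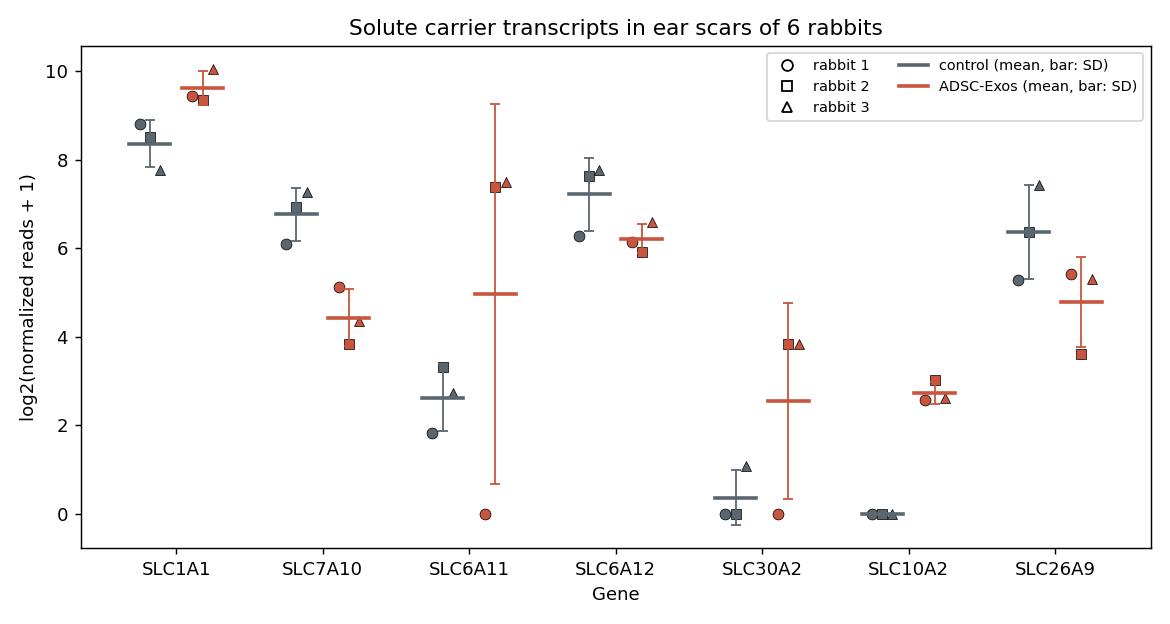
Level of each of the 7 transcripts in every rabbit, as log2(normalized reads + 1), with control rabbits in grey and ADSC-Exos rabbits in red; lines and bars are the mean and SD of 3 rabbits. The arms stand apart for SLC1A1, SLC7A10 and SLC10A2, while ADSC-Exos rabbit 1 is at 0 for SLC6A11 and SLC30A2 and the other two ADSC-Exos rabbits are above every control.

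SLC1A1 encodes the excitatory amino acid transporter of neurons and epithelia, which takes up glutamate, aspartate and cysteine together with sodium. Transcript ENSOCUT00000027220 had 525, 364 and 194 reads in control rabbits 1 to 3 and 699, 648 and 1042 reads in ADSC-Exos rabbits 1 to 3. Every treated rabbit was above every control, with control rabbit 3 the lowest of all and ADSC-Exos rabbit 3 the highest. Mean normalized reads were 341.8 after saline and 804.3 after exosomes, a 2.35-fold higher mean, and the log2 values were 8.36 ± 0.53 and 9.62 ± 0.38 (SD, n = 3 each). The limma difference was 1.26 with a standard error of 0.51 and a 95% interval from 0.07 to 2.44. The authors' deposited table gave it an FDR of 0.022 and the 30th smallest p among the listed mRNAs. By limma it passed the 0.05 threshold before adjustment (unadjusted p = 0.040). That call was lost without control rabbit 2 (unadjusted p = 0.093), control rabbit 3 (unadjusted p = 0.13) or ADSC-Exos rabbit 3 (unadjusted p = 0.12), while the difference stayed between 0.97 and 1.48. With limma and Benjamini-Hochberg adjustment over the table its adjusted p was 0.11.

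SLC7A10 encodes a sodium-independent exchanger of small neutral amino acids, among them alanine, serine and D-serine, known from brain and, in human and mouse, from white fat cells. Its transcript ENSOCUT00000009441 had 80, 121 and 136 reads in the controls and 34, 13 and 19 reads in the treated rabbits. All ADSC-Exos rabbits were below all controls, and the treated rabbit nearest to the controls was rabbit 1. The means were 113.8 and 22.1 normalized reads, 5.15-fold lower after exosomes, with log2 values of 6.77 ± 0.60 and 4.43 ± 0.65 (SD, n = 3 each). The limma difference of -2.33 (SE 0.56) had a 95% interval from -3.62 to -1.04. In the authors' deposited table the FDR was 0.00047 and the p the 14th smallest of the listed mRNAs. With limma and Benjamini-Hochberg adjustment over the table the adjusted p was 0.079. The unadjusted limma p was 0.0031, and it ran from 0.0018 to 0.0155 with any single rabbit left out, for differences between -2.68 and -2.03. None of the 10 adipocyte markers on the list used here, ADIPOQ, PLIN1 and LEP among them, was in the table, so fat content could not be compared between the arms.

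The table held a pair of carriers for gamma-aminobutyric acid (GABA), the inhibitory neurotransmitter, and their differences had opposite signs. SLC6A11 encodes a GABA transporter best known from astrocytes. Transcript ENSOCUT00000001628 had 3, 9 and 5 reads in the controls, none in ADSC-Exos rabbit 1, and 163 and 176 reads in ADSC-Exos rabbits 2 and 3. The treated arm thus held both the lowest and the highest values. A count of 0 allows up to 3 reads, or 2.98 normalized reads in that library, which is above the 2.53 of control rabbit 1, so ADSC-Exos rabbit 1 cannot be placed below the controls at this depth. Mean normalized reads were 5.72 after saline and 114.8 after exosomes, and log2 values were 2.62 ± 0.76 and 4.96 ± 4.29 (SD, n = 3 each).

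The SLC6A11 difference of 2.33 (SE 1.89) did not exceed the spread between rabbits (limma, unadjusted p = 0.25, 95% interval -2.05 to 6.72). With ADSC-Exos rabbit 1 at 0 reads, its size also depends on the pseudocount, and was 1.48 with 0.1 and 2.38 with 5. The difference rested on which treated rabbits were included. The difference was 4.81 without ADSC-Exos rabbit 1 (limma, unadjusted p = 0.00017). It was 1.12 without rabbit 2 (limma, unadjusted p = 0.61) and 1.06 without rabbit 3 (limma, unadjusted p = 0.62). Without ADSC-Exos rabbit 1, 311 listed mRNAs passed an unadjusted limma p of 0.05, against 193 with all rabbits. The treated SD of 4.29 was the 11th highest of the 421 listed mRNAs, whose median was 0.91. Of the 242 mRNAs listed as higher, 25 had no read in ADSC-Exos rabbit 1, and 2 of those had reads in every control rabbit, SLC6A11 and the collagen-associated gene CTHRC1. The authors' deposited table gave SLC6A11 an FDR of 0.43.

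SLC6A12 encodes the betaine and GABA transporter, which is induced by hypertonic conditions in kidney cells and brings in betaine as an osmolyte. Reads of transcript ENSOCUT00000006746 were 90, 197 and 192 in the controls and 70, 59 and 93 in the treated rabbits. Control rabbit 1, at 76.0 normalized reads, lay below ADSC-Exos rabbit 3, at 94.8, so the arms overlapped. Log2 values were 7.22 ± 0.83 in control and 6.22 ± 0.34 in ADSC-Exos scars (SD, n = 3 each), with mean normalized reads of 162.9 and 74.7, 2.18-fold lower. The difference of -1.003 (SE 0.57) did not pass limma (unadjusted p = 0.11) and passed without control rabbit 1, at -1.48 (unadjusted p = 0.024). The authors' deposited table gave an FDR of 0.36. The difference between the responses of SLC6A11 and SLC6A12 was not tested.

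Of the other genes of GABA handling that were looked for, the synthetic enzymes GAD1 and GAD2, the degrading enzyme ABAT and the receptor subunits, only the receptor subunit gene GABRA5 was listed. It was without reads after saline, had 7, 13 and 3 reads after exosomes, and its FDR in the authors' deposited table was 0.094. From the glutamate list, 2 transcripts of GRIP2, a scaffold protein that binds glutamate receptors and matched only by the start of its symbol, were listed with differences of -2.74 and 1.35, neither at an FDR under 0.05 in the authors' deposited table. Glutamine synthetase, the glutaminases and glutamate receptor subunits were not among the selected transcripts.

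SLC10A2 encodes the sodium-dependent bile acid transporter of the ileum, kidney and bile duct. Transcript ENSOCUT00000005444 had no reads in any control rabbit and 5, 7 and 5 reads in ADSC-Exos rabbits 1 to 3. The treated rabbits were alike and all above the controls, but on few reads. Set against the 3 reads that a count of 0 allows in each control library, the mean of 5.72 normalized reads was 1.93-fold higher. This is not a lower limit of the fold, since the treated mean enters without its own counting error. The 95% Poisson interval of 5 reads runs from 1.62 to 11.7, so it includes the 3 reads allowed by 0. These limits cover counting error only. The log2 difference of 2.73 is set by the pseudocount, and was 5.84 with a pseudocount of 0.1 and 1.09 with 5. The limma p was 0.0025 before adjustment and 0.077 after Benjamini-Hochberg adjustment over the table, and the authors' deposited table gave an FDR of 0.13. With every control at 0 the control SD was 0, so the control arm gave no measured spread for the limma p and interval. Of the bile acid list, which held FABP6, NR1H4, NR0B2, ABCB11, CYP7A1 and GPBAR1, the bile acid receptor gene GPBAR1 alone was listed. It had 9, 10 and 7 reads after saline and 9, 36 and 35 after exosomes, with overlapping arms and an FDR of 0.39 in the authors' deposited table.

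SLC30A2 encodes a zinc transporter that moves zinc from the cytosol into vesicles and is known for loading zinc into milk. Transcript ENSOCUT00000029367 had 1 read in the controls, in rabbit 3, and none, 13 and 13 reads in ADSC-Exos rabbits 1 to 3. ADSC-Exos rabbit 1 thus lay with the controls. The ratio of treated to control reads was 26.9 after scaling, with a 95% counting interval from 4.41 to 1101, which ignores the spread between rabbits. On the log2 scale the difference was 2.19 (SE 1.13) and did not pass limma (unadjusted p = 0.089). Its size is set by the pseudocount, and was 3.50 with a pseudocount of 0.1 and 1.15 with 5. The difference was 3.47 without ADSC-Exos rabbit 1 (limma, unadjusted p = 0.00092). It was 1.55 without rabbit 2 (limma, unadjusted p = 0.26) and 1.55 without rabbit 3 (limma, unadjusted p = 0.27). The authors' deposited table gave an FDR of 0.46. No metallothionein and no zinc importer of the SLC39 family was among the selected mRNAs.

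SLC26A9 encodes an anion transporter and chloride channel of airway and stomach epithelium. Transcript ENSOCUT00000025360 had 45, 82 and 152 reads in the controls and 42, 11 and 38 reads in the treated rabbits. Control rabbit 1, at 38.0 normalized reads, lay below ADSC-Exos rabbits 1 and 3, at 41.7 and 38.7, and only ADSC-Exos rabbit 2 was below all controls. Log2 values were 6.36 ± 1.07 in control and 4.78 ± 1.02 in ADSC-Exos scars (SD, n = 3 each), for means of 96.9 and 30.5 normalized reads. The difference of -1.58 (SE 0.74) did not pass limma (unadjusted p = 0.064). It passed without control rabbit 1, at -2.12 (unadjusted p = 0.036). It was -1.05 without control rabbit 3 (limma, unadjusted p = 0.22) and -0.997 without ADSC-Exos rabbit 2 (limma, unadjusted p = 0.21). The authors' deposited table gave an FDR of 0.40.

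**Figure D2:**
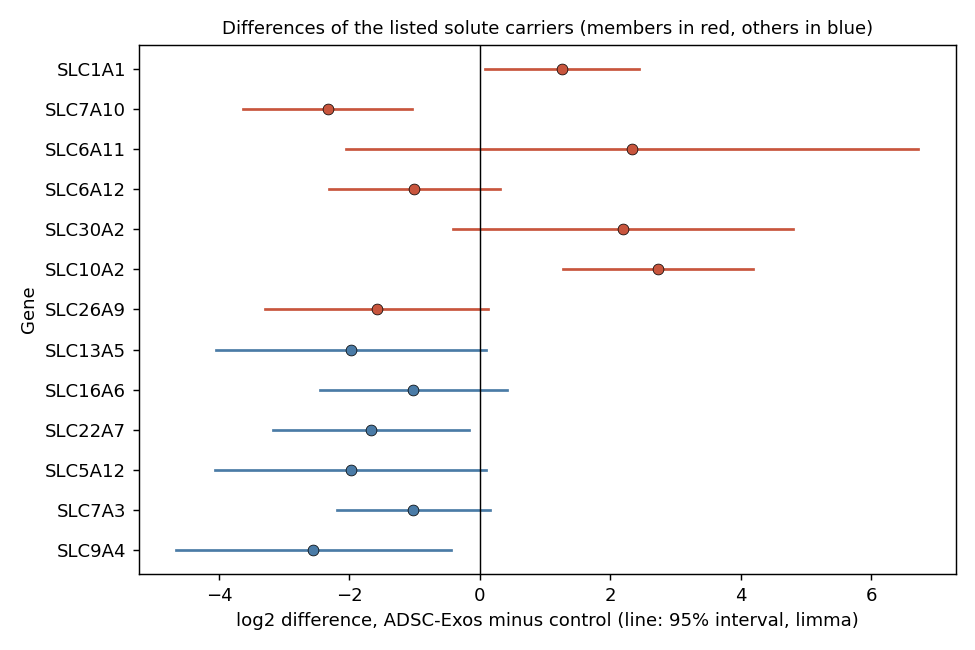
Log2 difference (ADSC-Exos minus control) with its 95% limma interval for the 13 listed solute carriers, members in red and the 6 others in blue. The intervals of SLC1A1, SLC7A10 and SLC10A2 lie on one side of 0 among the members, and that of SLC6A11 is the widest. For SLC10A2 every control had 0 reads.

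The listed solute carriers numbered 13 in all, and the 6 that are not members were all lower in ADSC-Exos scars, as were 9 of the 13, against 179 of the 421 listed mRNAs. None of the 6 passed an FDR of 0.05 in the authors' deposited table or an adjusted limma p of 0.05 over the table, SLC22A7 and SLC9A4 passed an unadjusted limma p of 0.05, and SLC16A6 was the one whose arms overlapped. SLC22A7, an organic anion transporter of liver and kidney, had 147, 132 and 97 reads after saline and 99, 21 and 24 after exosomes. Its difference was -1.67 (SE 0.65), and ADSC-Exos rabbit 1 lay at -0.30 relative to the control mean where rabbits 2 and 3 lay at -2.46 and -2.26. SLC7A3, a carrier of arginine and lysine, had 157, 135 and 182 reads after saline and 117, 64 and 56 after exosomes, a difference of -1.02 (SE 0.51). SLC16A6, of the monocarboxylate transporter family, had 198, 372 and 369 reads after saline and 252, 84 and 140 after exosomes, a difference of -1.02 (SE 0.62).

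The remaining 3 had few reads. SLC9A4, a sodium-proton exchanger, had 21, 9 and 3 reads after saline and 0, 3 and 0 after exosomes, a difference of -2.55 (SE 0.91), and the division by size factors alone keeps rabbits with 3 reads in both arms apart. SLC13A5, the citrate carrier, had 15, 11 and 13 reads after saline and 5, 0 and 6 after exosomes, a difference of -1.97 (SE 0.90). SLC5A12, a lactate carrier, had 21, 5 and 9 reads after saline and 3, 0 and 4 after exosomes, a difference of -1.98 (SE 0.90). For each of the 3 the treated rabbits were the lowest, at levels where a few reads set the log2 value.

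By the gene ontology terms deposited with the table, 4 of the 421 listed mRNAs carried a sodium symporter activity, and all were members: SLC1A1, SLC6A11, SLC6A12 and SLC10A2. Of these, 3 were higher and 1 was lower. The terms are incomplete, since SLC13A5 and SLC5A12, known as sodium-coupled carriers, do not carry one. The broader term transporter activity covered 42 listed mRNAs, 24 higher and 18 lower. Of the 42, 5 passed an FDR of 0.05 in the authors' deposited table, which is 11.9% against 11.6% of the whole table. Besides SLC1A1 and SLC7A10 these were ATP6V0D2, part of the proton pump of vacuoles and lysosomes, PMP2, a lipid-binding protein of peripheral myelin, and SCN3A, a voltage-gated sodium channel. SCN3A had 180, 248 and 125 reads after saline and 94, 54 and 73 after exosomes. AQP8, the one listed aquaporin, had 39, 49 and 87 reads after saline and 15, 0 and 5 after exosomes, and no ABC transporter was listed.

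The treated rabbits differed among themselves. ADSC-Exos rabbit 1 was the least changed treated rabbit for 5 of the 7 members, or 71.4%, and for 72.7% of all listed mRNAs. Least changed means the smallest shift from the control mean in the direction of the listed difference. A rabbit that moved the other way is counted too, as rabbit 1 was for SLC6A11 and SLC30A2. One of the 5, SLC10A2, was a tie in reads, since rabbits 1 and 3 both had 5 and differ by their size factors alone. SLC1A1, where rabbit 2 was the least changed, and SLC6A12, where rabbit 3 was, were the exceptions. For SLC1A1 the rabbits lay 1.08, 1.00 and 1.69 above the control mean on the log2 scale, and for SLC10A2 2.58, 3.02 and 2.61 above it. For SLC6A11 they lay at -2.62, 4.75 and 4.87 and for SLC30A2 at -0.36, 3.46 and 3.47. Of the 242 mRNAs listed as higher, 119, or 49.2%, had ADSC-Exos rabbits 2 and 3 above every control and rabbit 1 not above the highest control, so SLC6A11 and SLC30A2 share that split with many listed mRNAs. ADSC-Exos rabbit 1 also had the fewest reads in the listed mRNAs, a sum over transcripts selected for differing between the arms. The mRNA size factors of ADSC-Exos rabbits 1 to 3 were 1.006, 0.988 and 0.981. The part of the library in these differences was not tested.

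**Figure D3:**
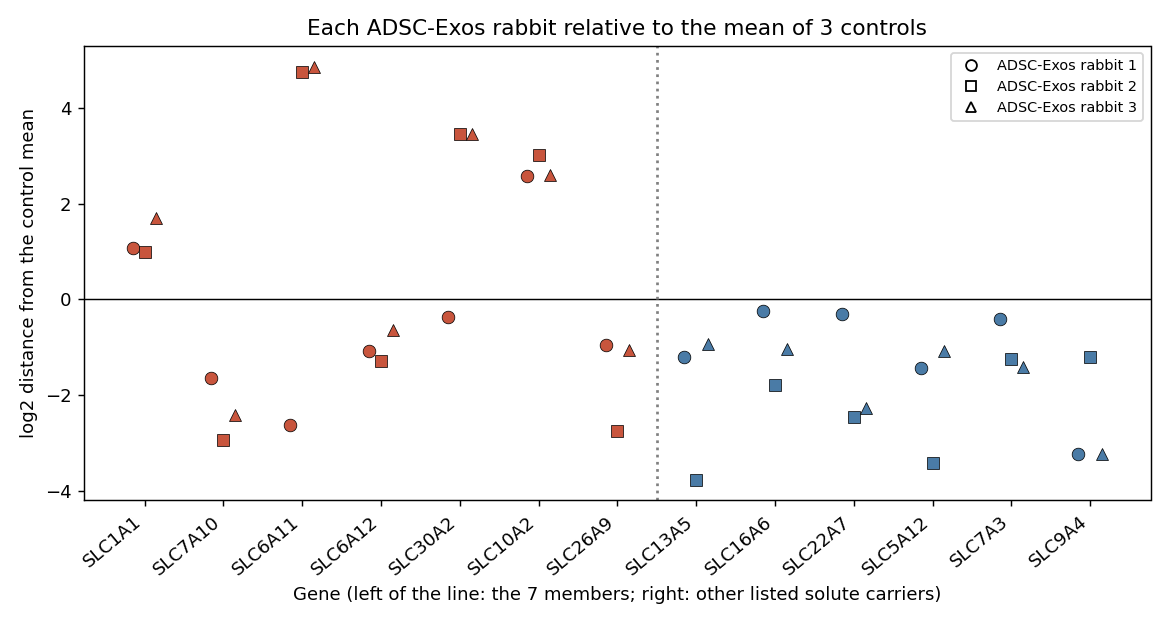
Log2 distance of each ADSC-Exos rabbit from the mean of the 3 controls, for the 7 members left of the dotted line and the 6 other listed solute carriers right of it. Rabbit 1 (circles) lies at -2.62 for SLC6A11 where rabbits 2 and 3 lie at 4.75 and 4.87, and the 3 rabbits lie close together for SLC10A2.

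The control rabbits differed among themselves as well. Among the 5 members with reads in every control, control rabbit 1 was the lowest for 4, SLC7A10, SLC6A11, SLC6A12 and SLC26A9, and the highest for SLC1A1. SLC6A11 enters this count on 3, 9 and 5 reads. Control rabbit 1 had the fewest listed mRNA reads of the controls, 100758, and a size factor of 1.18. The order was not counted over all listed mRNAs, so it cannot be called particular to the members. The largest control spread among the members was that of SLC26A9, with an SD of 1.07 where the median over the table was 0.56.

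**Figure D4:**
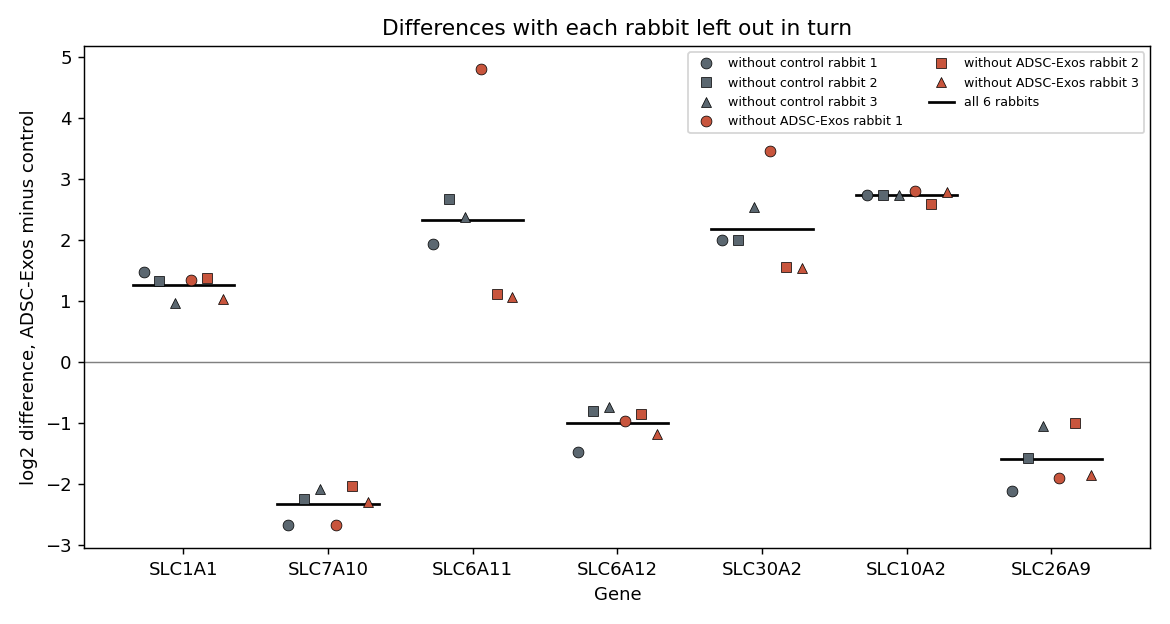
Log2 difference of each member with all 6 rabbits (black line) and with each rabbit left out in turn (grey, a control; red, an ADSC-Exos rabbit). SLC7A10 runs from -2.68 to -2.03 and SLC6A11 from 1.06 to 4.81, while the points of SLC10A2 for left-out controls coincide because every control had 0 reads.

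For each member, the listed mRNAs with the most similar profile were found by the root mean square difference (RMSD) of log2 values, each centred on its own mean over the 6 rabbits. All were listed for a difference between the same arms, so likeness is partly given by the selection. Nearest to SLC1A1 was TRPC6, a calcium-permeable channel, with 17, 11 and 6 reads after saline and 23, 23 and 26 after exosomes and an RMSD of 0.17, where the median listed mRNA was at 1.33, and ROPN1L followed at 0.28. Nearest to SLC7A10 were LAMA1, a laminin chain, at 0.24 and IL13, a T-cell cytokine with few reads, at 0.26, against a median of 1.96. SLC6A12 was closest to PPEF1 at 0.11 and SPATA18 at 0.18, against a median of 1.40. SLC10A2 was closest to CCDC63 and UBXN10, both at 0.16 and both without reads in the controls, against a median of 1.36.

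SLC26A9 was closest to CHSY1, a chondroitin synthase, at 0.35 and to COL10A1, a cartilage collagen, at 0.42, against a median of 1.81. SLC30A2 was closest to PLAC8L1 at 0.33 and to the potassium channel gene KCNJ1 at 0.39, against 1.53. For SLC6A11 the nearest, GALNT15 at 0.98 and CTHRC1 at 1.05, were farther off, against 2.60. GALNT15, an enzyme of mucin-type glycosylation, had 288, 295 and 287 reads after saline and 96, 3085 and 2570 after exosomes. Among the members themselves the closest pair was SLC7A10 and SLC26A9, at 0.59, and the farthest was SLC7A10 and SLC6A11, at 3.68.

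Markers of other cell types were also among the listed mRNAs. Of 7 cartilage markers COL10A1 and EPYC were listed, and their summed normalized reads ran from 8508 to 23242 in control and from 2799 to 5931 in ADSC-Exos rabbits. The erythrocyte list had 3 of 5 genes (9701 to 37337 against 3633 to 6924), skeletal muscle 2 of 8 (7.87 to 246.9 against 3.98 to 8.16), sebaceous gland 1 of 7 (219.7 to 360.8 against 49.7 to 145.8) and macrophages 1 of 5 (58.3 to 106.8 against 77.5 to 344.6). Their part in the members' differences was not tested. No marker of the fibroblast, keratinocyte, endothelial or adipocyte lists was among the selected mRNAs, so the scar label could not be checked against them.

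By gene order in the rabbit RefSeq assembly mOryCun1.1, in which all 7 members were found by symbol, none of the 28 nearest protein-coding neighbours, 2 on each side of a member, was found among the listed mRNAs. Some neighbours carry only a LOC number, and 100 of the 421 listed transcripts have no symbol, so a neighbour could be missed. With 421 mRNAs listed of an estimated 17743 transcripts tested, few of any 28 genes would be listed. Nothing is concluded from this absence. No listed lncRNA was annotated within 3 kb of a member's transcript.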

How the data were processed

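The submitters' processing notes name DESeq2 1.30.1, HTSeq 2.0.3, STAR 2.7.6a, Trimmomatic 0.40 and FastQC 1.0.0, without saying what each did. Genome build and strandedness of counting are not given in the sources used here. Deposited sample values are log2. In every library 2 to the value, minus 1, gave whole multiples of 1 step for 100% of mRNA values (tolerance 0.01), so they are log2 of reads over a size factor (0.890 to 1.18), plus a pseudocount of 1. The p-values and FDR are the authors' deposited ones, from a test the table does not name. All columns were mapped and carry 1 date tag and 1 lane.

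The whole mRNA table was fitted with limma 3.58.1 (R 4.3.3), using its trend and robust options, ADSC-Exos minus control, and adjusted over its 421 transcripts, which is lenient for a selected table. The number of transcripts tested was estimated at 17743 from the ratios of deposited FDR to p of the listed mRNAs and lncRNAs together. It puts 53.4% of the ratios on a whole rank (tolerance 0.0001), where the next best number that is no multiple of it puts 6.14%. Adjusted over 17743, all members had an adjusted limma p of 1. The unlisted transcripts have no values here and were entered at the largest possible p. That padding bears on the outcome, so nothing is concluded from it. An exact permutation test of 3 rabbits against 3 cannot give a p under 0.1. The script was tested on simulated data with a floor set under the mean reads. That test does not cover transcripts with few reads, SLC10A2 and SLC30A2 among them. No count test was run on recovered reads. The members, gene lists and tests were chosen with earlier results of these data known. Named are the members, other listed solute carriers, listed genes of the marker and transport lists and the 2 nearest profiles of each member. SCN3A, and CTHRC1 in the count of zeros, were singled out after their values were seen. One list of cell type markers is not reported here.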

Additional observations from a re-analysis of the deposited data

How the results depend on the processing

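Depth limits SLC10A2, SLC30A2 and the low solute carriers most, and all settings act on a selected table. No member's difference changed sign. With one rabbit left out the differences ran from 0.97 to 1.48 for SLC1A1, from 1.06 to 4.81 for SLC6A11, from -1.48 to -0.73 for SLC6A12, from 1.55 to 3.47 for SLC30A2 and from -2.12 to -0.997 for SLC26A9. The members at an unadjusted limma p under 0.05, 3 as reported, were 2 to 5, with 5 without control rabbit 1 and 5 without ADSC-Exos rabbit 1. Listed mRNAs at that threshold, 193 as reported, were 91 to 311 (141, 94 and 116 with controls 1, 2 and 3 left out, and 311, 101 and 91 without ADSC-Exos rabbits 1 to 3) and 127 with a mean of at least 10 normalized reads in the higher arm, where 364 were fitted. SLC10A2 and SLC30A2, at means of 5.72 and 8.80 normalized reads in the higher arm, fell under that filter and were not fitted there. SLC1A1 lost the threshold with quantile normalization (0.86), with no size factor (1.22) and with that filter (1.26, unadjusted p = 0.058). SLC26A9 passed it with no size factor (-1.62) and with that filter (-1.58). The cause was not tested. Quantile normalization moved the median difference of all listed mRNAs by -0.27. SLC10A2 and SLC30A2, which the pseudocount sets most, ran from 1.09 to 5.84 and from 1.15 to 3.50 over the settings other than leaving out a rabbit. Limma calls with an adjusted p under 0.05 were 3 over the table and 0 over 17743 transcripts. The second adjustment was chosen after seeing the data and entered unlisted transcripts at the largest possible p.

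With the replicate number as a block SLC1A1 lost the threshold (1.26, unadjusted p = 0.079), 2 members and 169 listed mRNAs passed it, and the correlations of deviations of same-numbered rabbits were -0.025, -0.013 and 0.014, so a shared number was not taken as a pairing.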

Other observations

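The circular RNA table held 18 circRNAs, closed by back-splicing, from 14 solute carrier genes, 10 listed as higher and 8 as lower in ADSC-Exos scars, and none came from a member or from another solute carrier of the mRNA table. The authors' deposited FDR was 0.82 for each. A circRNA of SLC30A7, a zinc transporter of the early secretory pathway, was singled out after its values were seen. On chromosome 13 from 63260253 to 63271026 in the authors' coordinates (build not stated in the labels) this circRNA was counted at 20, 15 and 15 reads after saline and 7, 8 and 1 after exosomes. Its log2 difference was -1.84 and its p 0.49 in the authors' deposited table. The other 17 had 2 to 7 reads each over all 6 rabbits, so their directions rest on few reads. CircRNA reads were recovered by taking the smallest step of each library as 1 read, which gave size factors of 0.454 to 0.510. It was not checked whether that step stands for more than 1 read, so these counts are relative. The directions of all 1694 listed circRNAs are not given here.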
